A study of Mus musculus with 5 samples.

Results

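Endocardial cells, the endothelial cells that line the heart chambers, were compared between mouse heart sorts that shared surface cKit and differed in the DDR2 gate. A cell was taken as endocardial where its deposited natural-log value of Npr3 was at least 1.5, Cdh5 or Pecam1 was above 0, and Ptprc, Pdgfra and Prox1 were 0. This rule found 1744 cells in the 3 libraries compared, of 10961 cells in all 5 libraries of the series. The cKit+/DDR2+/CD45- library gave 420 of its 1327 cells (31.7%, 95% Clopper-Pearson interval 29.2 to 34.2). The cKit+/DDR2- replicate 1 library gave 146 of 436 cells (33.5%, 29.1 to 38.1), and cKit+/DDR2- replicate 2 gave 1178 of 3020 (39.0%, 37.3 to 40.8). Adult cardiac interstitial cells had been freed with collagenase II, cleared of cardiomyocytes, sorted by flow cytometry and sequenced from polyadenylated RNA on a droplet platform. CD45 depletion was applied to the double-positive sort, so that the cKit+/DDR2+/CD45- cells carried a gate that the cKit+/DDR2- cells are not described as having. The labels give no strain, sex, age in weeks or number of animals, and do not say whether the cKit+/DDR2- libraries came from separate animals. With 1 library against 2, no test was run, and every difference describes these libraries. The distance between the 2 cKit+/DDR2- libraries served as the yardstick.

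The endocardium differs from the capillary endothelium of heart muscle in the receptor Npr3, which clears natriuretic peptides, and in the secreted proteins Cytl1 and Vwf, the von Willebrand factor of clotting. KIT is the receptor for stem cell factor, and DDR2 is a receptor tyrosine kinase that binds fibrillar collagen and is typical of fibroblasts. Endothelial cells can carry class I and class II major histocompatibility complex (MHC) molecules, and interferon gamma is the best known inducer of the class II genes through the coactivator Ciita. The same cytokine induces the guanylate-binding proteins (GBP) and the immunity-related GTPases (IRG), which attack intracellular microbes. Immediate early genes such as Fos respond within minutes to many stimuli, enzymatic digestion of tissue among them.

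The 3 libraries differed in several ways that touch the results. Endocardial cells held 4769546, 1630217 and 11265279 unique molecular identifiers (UMIs, 1 per captured transcript) in cKit+/DDR2+/CD45-, replicate 1 and replicate 2, with medians of 11354, 11510 and 9724 UMIs per cell. Median mitochondrial shares were 2.43%, 3.71% and 2.11%, and after thinning each cell to 2000 UMIs the median cell showed 992, 1027 and 998 genes. The transcript Gm42418, which overlaps ribosomal RNA sequence, took 12.6%, 1.48% and 11.1% of UMIs. Xist stood at 832, 0 and 522 CPM (UMIs of a gene per 1000000 UMIs of the summed cells). The Y-linked gene Ddx3y stood at 0, 77.3 and 0 CPM, so that replicate 1 stood apart from the other libraries in both genes. The yardstick and every ratio against replicate 1 therefore also cross this difference in sex-linked transcripts, and ratios against replicate 2 do not. Replicate 1 also shared 190 cell barcodes, 43.6% of its cells, with the cKit+/DDR2+/CD45+ library, where other pairs of libraries shared 1 to 3. Of its 146 endocardial cells, 104 carried a shared barcode. The copies in replicate 1 were the deeper ones, with a median of 12134 UMIs against 622. The called genes and the medians of the main lists are therefore given also with its 42 unshared endocardial cells alone. Shares of cells, marker sums and the blood endothelial values against replicate 1 were computed with all its cells only.

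The cells carried the markers of their name in each library. Cytl1 stood at 2084, 2021 and 1676 CPM in cKit+/DDR2+/CD45-, replicate 1 and replicate 2, and Vwf at 2117, 2016 and 2308 CPM. Npr3, which chose the cells, stood at 2775, 1676 and 2565 CPM. The marker Hapln1 had no UMI in the endocardial cells of any of the 3 libraries. Of the 22 genes of the endocardial list, which does not hold Npr3, 19 reached the minimum of 50 CPM in at least 1 library. None of the 19 lay 2-fold apart from both cKit+/DDR2- libraries. Over all measured genes 0.331% did, so a count of none is near that share and is no result about the markers. By any amount, 7 stood above both libraries (all genes, 21.2%) and 1 below both (all genes, 29.9%). Plvap, which forms the diaphragms of fenestrae, stood at 1059, 1270 and 876 CPM, and the cadherin Cdh11 at 392, 266 and 384 CPM. Nrg1, the neuregulin that endocardium sends to heart muscle, stood at 261, 191 and 241 CPM, and the transcription factor Gata4 at 69.4, 68.7 and 64 CPM. Nfatc1, a transcription factor of endocardium and valves, was the member below both libraries, at 45.3 against 50.9 and 63.7 CPM. Their median log2 ratio was 0.05 against replicate 1 and 0.03 against replicate 2. All log2 ratios were taken after adding 1 CPM to both values. The 3 below the minimum were Hapln1, Dkk3 and Tbx20. Tbx20, a cardiac transcription factor, stood at 40.0 CPM (95% Poisson interval 34.6 to 46.1) against 20.2 and 18.2 CPM. The members nearest the threshold, with Npr3 from 1.5 to 2.0, were 23, 20 and 53 cells with Cytl1 at 2072, 1974 and 1456 CPM. Cells just outside it, from 1.0 to 1.5, were 25, 10 and 38, and there Cytl1 stood at 763, 1186 and 1203 CPM.

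**Figure D1:**
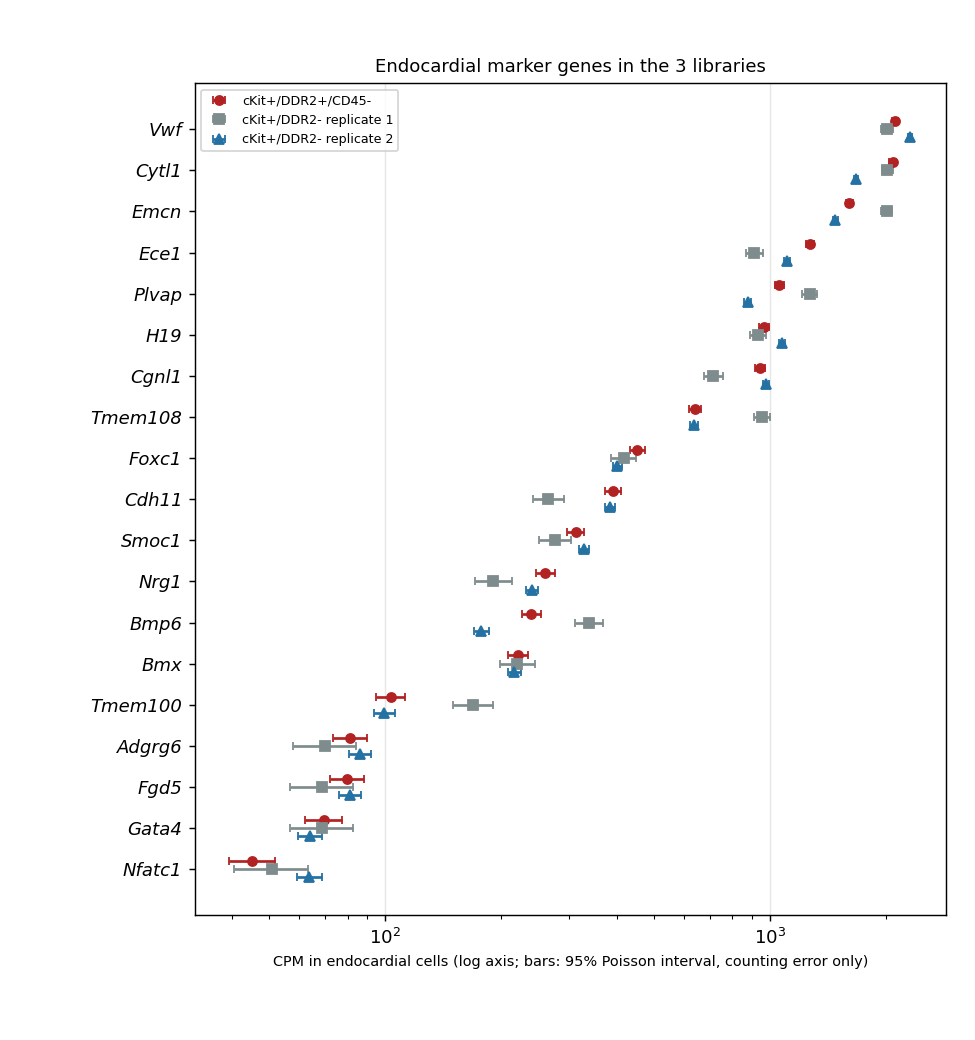
CPM of the 19 measured endocardial marker genes (rows) on a log axis in the endocardial cells of cKit+/DDR2+/CD45- (circles), cKit+/DDR2- replicate 1 (squares) and replicate 2 (triangles), with 95% Poisson intervals for counting error. No gene lies 2-fold apart from both cKit+/DDR2- libraries, where 0.331% of all measured genes do. Cytl1 and Vwf stand between 1676 and 2308 CPM in all 3 libraries.

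Transcripts used as markers of other heart cells were present in the endocardial cells to different extents. The 7 macrophage markers summed to 1.68 CPM in cKit+/DDR2+/CD45-, 31.9 CPM in replicate 1 and 91 CPM in replicate 2, with Adgre1 and Fcer1g at 0 in the first. Fibroblast markers summed to 3193, 3130 and 2882 CPM, most of it Dcn, which encodes the matrix protein decorin. In the endocardial cells Dcn stood at 2537, 2579 and 2330 CPM and Lum, another small matrix proteoglycan, at 520, 510 and 439 CPM. In blood endothelial cells of the same libraries the fibroblast markers summed to 62.2, 16.0 and 98.5 CPM. At full depth Dcn was seen in 97.4% and Col1a1 in 5.71% of cKit+/DDR2+/CD45- endocardial cells. Fibroblasts of the cKit-/DDR2+ sort showed Col1a1 in 98.7%. Whether the endocardial cells made the Dcn themselves was not tested. Blood endothelial markers summed to 3396, 3055 and 2778 CPM in the endocardial cells, and Fabp4 led them with 2827, 2553 and 2384 CPM. Summed markers reached 157, 113 and 139 CPM for pericytes, 24.5, 23.3 and 26.1 CPM for cardiomyocytes, and at most 1.51 CPM for smooth muscle.

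Messenger RNA of the sort targets was scarce in the endocardial cells of every library, and did not part the DDR2 gates at this depth. Ddr2 stood at 6.5 CPM (31 UMIs, 4.42 to 9.23) in cKit+/DDR2+/CD45-, at 2.45 CPM (4 UMIs, 0.669 to 6.28) in replicate 1 and at 5.41 CPM (61 UMIs, 4.14 to 6.96) in replicate 2. The log2 ratio was 1.12 (interval of the ratio without the added CPM, -0.09 to 3.37) against replicate 1 and 0.23 (-0.41 to 0.91) against replicate 2. Both intervals include 0. A Ddr2 UMI was seen in 5.48% of cKit+/DDR2+/CD45- endocardial cells (3.50 to 8.10), in 2.74% of replicate 1 (0.751 to 6.87) and in 4.24% of replicate 2 (3.17 to 5.56). Fibroblasts of the cKit-/DDR2+ sort showed 79.3% at a median of 14146 UMIs. Macrophages of cKit+/DDR2+/CD45+, a sort that was itself gated on DDR2, showed 0.633% at 11522.

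Kit, the target of the gate that all 3 sorts share, stood at 3.98 CPM (19 UMIs), 3.07 CPM (5 UMIs) and 7.01 CPM (79 UMIs). Its log2 ratio was 0.29 (-1.09 to 2.15) against replicate 1 and -0.69 (-1.62 to -0.08) against replicate 2. The value in cKit+/DDR2+/CD45- lay between those of the cKit+/DDR2- libraries. A Kit UMI was seen in 2.86%, 3.42% and 5.43% of endocardial cells, against 0.631% of fibroblasts of the cKit-/DDR2+ sort and 2.37% of macrophages (1.87 to 2.97). The interval in cKit+/DDR2+/CD45- endocardial cells, 1.48 to 4.94, includes the macrophage share and lies above the fibroblast interval, 0.205 to 1.47. Those macrophages were themselves sorted for surface cKit, so they are not a background without the target. The endocardial share was read neither as expression nor as its absence. In blood endothelial cells of the same libraries Kit stood at 60.0, 127 and 34.3 CPM and was seen in 21.4%, 37.9% and 11.9% of cells. The surface proteins on which the gates were set were not measured here. Other collagen receptors were near each other in the 3 libraries. Ddr1 stood at 16.8, 11.7 and 13.3 CPM, and Itgb1, the beta 1 integrin chain, at 612, 440 and 531 CPM. Kitl, the ligand of KIT, stood at 112, 93.9 and 103 CPM.

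Across all genes, cKit+/DDR2+/CD45- endocardial cells lay nearer to replicate 2 than the cKit+/DDR2- libraries lay to each other, and about as far from replicate 1. Against replicate 2, 30 of 3066 genes that reached 50 CPM were 2-fold or more apart (0.978%), with 7 higher (0.228%) and 23 lower (0.750%). Against replicate 1 the count was 81 of 3215 (2.52%), with 48 higher (1.49%) and 33 lower (1.03%). The yardstick between the 2 cKit+/DDR2- libraries was 86 of 3247 (2.65%). The median size of the log2 ratio was 0.13 against replicate 2, 0.25 against replicate 1 and 0.28 between the cKit+/DDR2- libraries, over 3319 genes. With the summed UMIs of all libraries thinned to an equal total, the counts were 35, 89 and 104 genes. With the 42 unshared cells of replicate 1, its count was 208 genes and the yardstick 256. The order of those 2 counts turned with cells thinned to 2000 UMIs (248 and 224), with an Npr3 minimum of 1.0 (84 and 79) and without cells holding a UMI of Lyz2, C1qa, Col1a1 or Rgs5 (95 and 91).

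**Figure D2:**
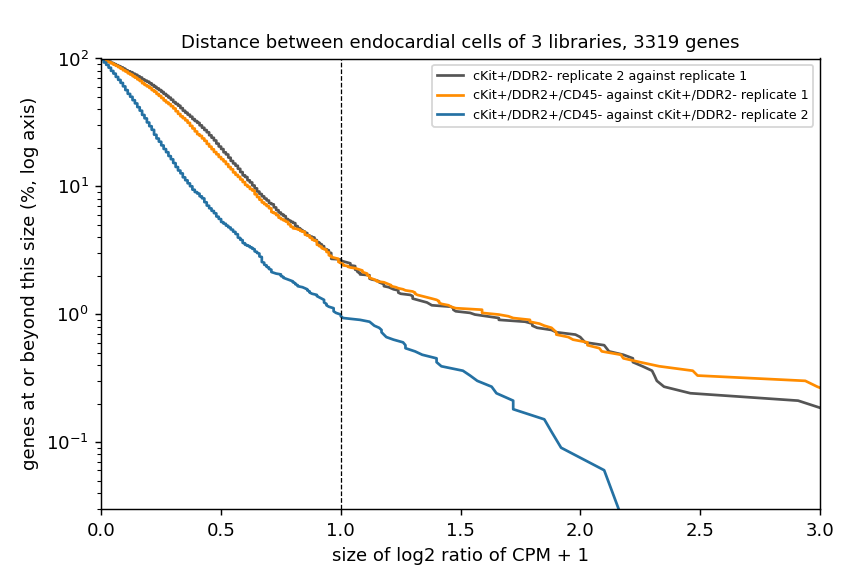
Share of 3319 genes (vertical, %, log axis) whose log2 ratio of CPM + 1 between 2 libraries is at or beyond the size on the horizontal axis, for 3 pairs of endocardial libraries; the dashed line marks 2-fold. The curve of cKit+/DDR2+/CD45- against replicate 2 lies below the other 2 curves, with a median size of 0.13 against 0.25 and 0.28.

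Only 11 genes of 3319 (0.331%) were at least 2-fold higher or lower in cKit+/DDR2+/CD45- than in both cKit+/DDR2- libraries. Higher were 6 (0.181%): Ly6a, H2-Aa, Gbp8, Nuak1, Serpina1b and 9930111J21Rik2. Lower were 5 (0.151%): Gm26802, Ier3, Nfkbiz, Socs3 and Fos. Both ratios share the cKit+/DDR2+/CD45- library, so the pair is not 2 independent comparisons. For 9 of the 11 the ratio to the nearer cKit+/DDR2- library was larger than the gap between the cKit+/DDR2- libraries. The exceptions were H2-Aa and Gbp8. The calling rule largely sets this outcome, because only 2.65% of genes lay 2-fold apart between the cKit+/DDR2- libraries. With CPM computed without abundant transcripts the split was 12 higher and 5 lower, and with median-ratio scaling 7 and 3. At 1.5-fold it was 29 higher (0.874%) and 27 lower (0.813%). With the unshared cells of replicate 1, 5 genes were higher and 4 lower, and 8 of the 11 were among them; Fos, Ier3 and Nuak1 were not. The ratios against those cells were 4.41 for H2-Aa, 2.90 for Gbp8, 1.88 for 9930111J21Rik2, 1.03 for Serpina1b and -1.73 for Gm26802. Of 40 gene lists, 4 held a called gene, 34 had measured members with none called, and 2 had no measured member.

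Ly6a (Sca-1), a lipid-anchored surface protein of capillary endothelium and of some progenitor cells, stood at 83.4 CPM (75.4 to 92.1) against 19.6 (13.4 to 27.7) and 21.9 (19.3 to 24.8). The cKit+/DDR2- libraries were alike and cKit+/DDR2+/CD45- stood alone above them. The log2 ratio was 2.03 (1.57 to 2.66) against replicate 1 and 1.88 (1.70 to 2.16) against replicate 2. At 2000 UMIs per cell a Ly6a UMI was seen in 11.3% (8.42 to 14.7), 2.07% (0.429 to 5.93) and 2.83% (1.95 to 3.95) of cells. Macrophages showed 0.605%, and fibroblasts of the cKit-/DDR2+ sort 39.8%. Of the capillary list, 6 of 7 measured members stood above both libraries, where 21.2% of all genes did, and Ly6a was the member 2-fold apart. In blood endothelial cells Ly6a stood at 1481, 800 and 1250 CPM. The blood endothelial marker sums of the endocardial cells were also highest in cKit+/DDR2+/CD45-, at 3396 against 3055 and 2778 CPM. Their spread was narrower than that of Ly6a, with replicate 1 above replicate 2. Summed over all cells of each library, the same markers stood at 12779, 6700 and 3183 CPM, in the same order and with a wider spread. The part of such transcripts in the Ly6a result was not tested. With cells chosen by Cytl1 and Vwf in place of Npr3, the ratio to replicate 2 was 0.98, and with the unshared cells of replicate 1 the ratio to it was 1.09.

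Nuak1, an AMPK-related kinase, followed the same pattern at 122 CPM (113 to 133) against 47.8 and 52.1. Its log2 ratios were 1.34 (1.01 to 1.72) and 1.22 (1.06 to 1.40), and 0.89 against the unshared cells of replicate 1. Serpina1b, of the alpha-1 antitrypsin family, stood at 61.9 CPM (55.0 to 69.3) against 25.8 and 26.5. That family holds near-identical copies, so the assignment of its reads to Serpina1b is uncertain. The transcript 9930111J21Rik2 stood at 68.8 CPM against 15.3 and 30.6, and Gm26802 at 19.1 CPM (15.4 to 23.4) against 76.7 and 49.7. For these 4 transcripts the 95% counting intervals of cKit+/DDR2+/CD45- did not overlap those of either cKit+/DDR2- library. The 4 were picked for lying 2-fold apart, which makes this likely, and the intervals cover counting error only.

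**Figure D3:**
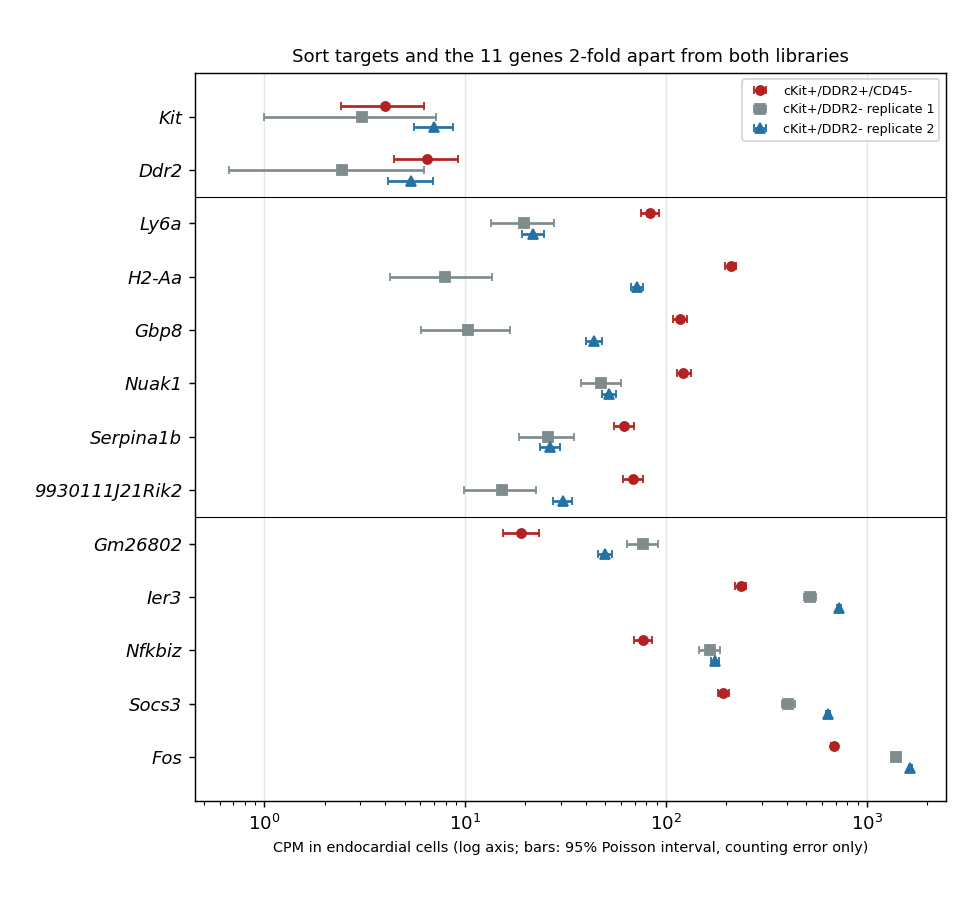
CPM (log axis) of the sort targets Kit and Ddr2 (top block), the 6 genes higher (middle block) and the 5 genes lower (bottom block) by at least 2-fold against both cKit+/DDR2- libraries, with 95% Poisson intervals for counting error. For Ly6a, Nuak1 and Serpina1b both cKit+/DDR2- libraries stand together below, while H2-Aa, Gbp8 and 9930111J21Rik2 run from replicate 1 through replicate 2 to cKit+/DDR2+/CD45-.

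The class II genes were the group with the widest spread over the libraries. H2-Aa, the alpha chain of the I-A molecule, stood at 210.3 CPM (197 to 224) in cKit+/DDR2+/CD45-, 7.97 CPM (13 UMIs, 4.25 to 13.6) in replicate 1 and 71.9 CPM (67.0 to 77.0) in replicate 2. Its log2 ratio was 4.56 (3.94 to 5.64) and 1.54 (1.41 to 1.68), and the gap between the cKit+/DDR2- libraries, 3.02, was wider than its distance from replicate 2. H2-Ab1, the beta chain, stood at 167, 16.6 and 87.0 CPM, and the invariant chain Cd74 at 191, 23.9 and 115 CPM. These 3 of 7 list members were measured; all 3 stood above both libraries and H2-Aa was called, with medians of 3.26 and 0.93. For the 4 members under 50 CPM the order of the libraries was the same: the peptide loader H2-DMa at 48.4, 3.68 and 18.8 CPM, H2-DMb1 at 39.2, 1.23 and 18.6, H2-Eb1 at 4.40, 1.23 and 1.60, and Ciita at 8.60, 2.45 and 4.35. With the unshared cells of replicate 1, the list's median against it was 2.78.

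Over the whole list, Cd74 included, a similar share of cells had any class II UMI in cKit+/DDR2+/CD45- and replicate 2. More cells of the former held several, and the shares of single genes differed as given below. At 2000 UMIs per cell, 38.7% of cKit+/DDR2+/CD45- cells (34.0 to 43.6) and 38.5% of replicate 2 cells (35.7 to 41.3) had at least 1 class II UMI, against 11.7% in replicate 1 (6.98 to 18.1). At least 4 were found in 51 of 416 cells (12.3%, 9.27 to 15.8), 0 of 145 (0 to 2.51) and 29 of 1167 (2.49%, 1.67 to 3.55). Mean class II UMIs per cell were 1.23, 0.138 and 0.626. H2-Aa itself was seen in 24.8% (20.7 to 29.2), 1.38% (0.167 to 4.89) and 11.7% (9.95 to 13.7) of cells, against 0.127% of fibroblasts. H2-Ab1 was seen in 17.1%, 2.76% and 13.6% of cells, with overlapping intervals in cKit+/DDR2+/CD45- (13.6 to 21.0) and replicate 2 (11.7 to 15.7). For Cd74 the share was lower than in replicate 2, at 14.7% (11.4 to 18.4) against 18.8% (16.6 to 21.1), and at full depth 30.7% against 55.5%. The CPM of Cd74 was the higher one in cKit+/DDR2+/CD45-, so its share and its level go opposite ways and no order is read from the share. The tenth of cells with the most held 56.6%, 85.0% and 50.1% of the class II UMIs. Macrophages of the cKit+/DDR2+/CD45+ sort held a mean of 50.8, and fibroblasts of cKit-/DDR2+ 0.0127. Macrophage markers summed to 1.68, 31.9 and 91 CPM in the endocardial cells of cKit+/DDR2+/CD45-, replicate 1 and replicate 2. Class II genes summed to 669, 57.0 and 318 CPM there. The part of macrophage RNA in the class II values was not tested.

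**Figure D4:**
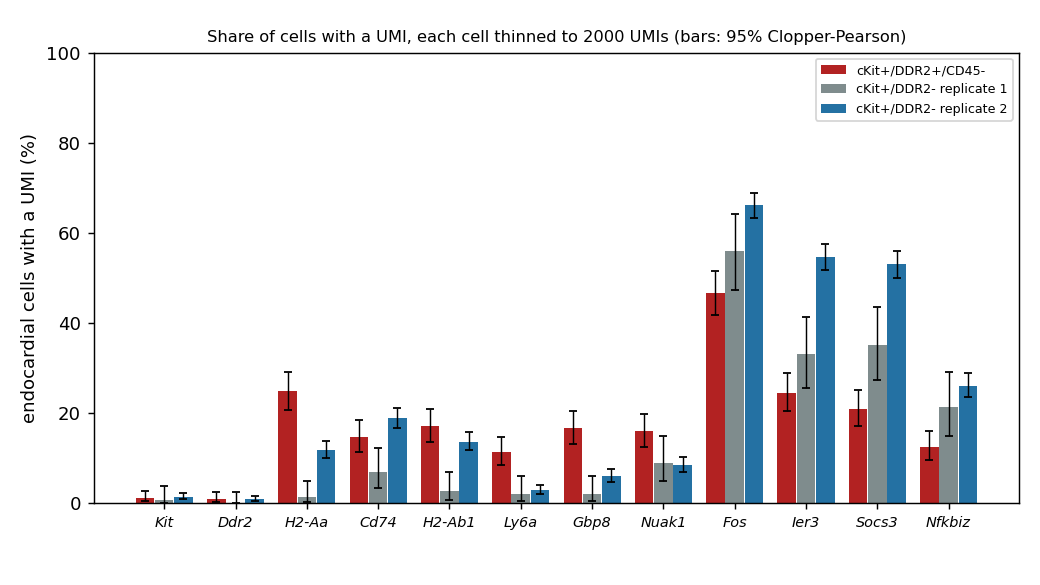
Share of endocardial cells (vertical, %) with at least 1 UMI of each gene after thinning every cell to 2000 UMIs, with 95% Clopper-Pearson intervals, for cKit+/DDR2+/CD45- (416 cells), cKit+/DDR2- replicate 1 (145) and replicate 2 (1167). Ly6a is seen in 11.3%, 2.07% and 2.83% of cells and Socs3 in 20.9%, 35.2% and 53.0%, while Kit and Ddr2 lie at or under 1.46% in all 3.

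Class I genes were higher as a group by a smaller amount. All 15 measured of 16 members stood above both cKit+/DDR2- libraries, where 21.2% of all genes did, but none reached 2-fold against both. H2-D1, a classical heavy chain, stood at 6720, 3474 and 4571 CPM, and B2m, the shared light chain, at 3099, 1029 and 2159 CPM. The immunoproteasome subunit Psmb8 stood at 422, 185 and 264 CPM, and Tap1, of the peptide transporter, at 66.7, 26.4 and 41.3 CPM. The list's median log2 ratio was 0.95 against replicate 1 and 0.56 against replicate 2, beside -0.09 and -0.00 over all genes. It was 0.97 against the unshared cells of replicate 1. At 2000 UMIs per cell the mean over cells was 29.4, 13.8 and 20.5 class I UMIs (SD over cells 15, 6.72 and 11.4). Near-identical H2-Q6 and H2-Q7 cannot be read apart with certainty.

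The GBP and IRG GTPases were higher in cKit+/DDR2+/CD45- with the same side against both libraries in nearly all measured members. Their list also holds the interferon-response genes Irf1, Irf8, Cxcl9, Cxcl10 and Cxcl11. Of its 24 genes 13 were measured, 12 stood above both libraries (all genes, 21.2%) and none below, with medians of 1.90 and 0.76 (2.59 against the unshared cells of replicate 1). Gbp8, a guanylate-binding protein, stood at 118 CPM (108 to 128), 10.4 CPM (6.07 to 16.7) and 43.9 CPM (40.2 to 48.0), with log2 ratios of 3.38 and 1.40. Iigp1, a GTPase that coats parasite vacuoles, stood at 416, 49.1 and 246 CPM. Gbp2 stood at 219.7, 60.1 and 126 CPM, Igtp at 147, 9.81 and 100, and Irgm1, a regulator of the other IRG proteins, at 82.4, 16.6 and 54.7. The exception was Irf1, an interferon-induced transcription factor, with 102 CPM between 58.3 and 201. At least 4 UMIs of the list at 2000 per cell were held by 38.2% (33.5 to 43.1), 1.38% (0.167 to 4.89) and 23.7% (21.3 to 26.3) of cells. Of the list of type I interferon genes, 9 of 31 were measured and 7 stood above both (all genes, 21.2%), with medians of 0.43 and 0.30. Bst2 (tetherin), which holds budding viruses at the cell surface, stood at 434, 321 and 214 CPM.

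Promoter windows of 3 of these genes are shown because measured members of their lists stood above both libraries and these windows hold short interferon- or class II-type motifs. RefSeq (GRCm38.p6) gives 250 bases before to 50 after each start, and 14 of the 24 genes of the GBP and IRG list matched its table, Cxcl10, Irf1 and Irf8 among them; Gbp8 did not. The motifs searched on both strands were a pair of GAAA copies 2 bases apart, the core of an interferon-stimulated element, TTCNNNGAA, a STAT palindrome, and TGACGTCA, the cyclic AMP element that forms part of class II promoters. Capitals mark the matches, and 2 of those in Irgm1 overlap.

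H2-Aa, chr17:34287774-34288073, minus strand: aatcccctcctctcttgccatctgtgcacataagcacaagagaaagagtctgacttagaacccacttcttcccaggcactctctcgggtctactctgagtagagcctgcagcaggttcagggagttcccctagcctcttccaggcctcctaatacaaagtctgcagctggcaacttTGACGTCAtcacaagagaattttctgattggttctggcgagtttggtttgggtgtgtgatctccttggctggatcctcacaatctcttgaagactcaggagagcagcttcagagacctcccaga
Gbp2, chr3:142620413-142620712, plus strand: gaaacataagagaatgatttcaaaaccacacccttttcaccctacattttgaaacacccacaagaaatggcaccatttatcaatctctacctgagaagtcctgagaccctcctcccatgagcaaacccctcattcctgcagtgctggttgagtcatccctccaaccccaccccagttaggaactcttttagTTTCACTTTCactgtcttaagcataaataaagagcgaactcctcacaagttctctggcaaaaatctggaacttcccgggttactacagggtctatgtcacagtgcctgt
Irgm1, chr11:48871371-48871670, minus strand: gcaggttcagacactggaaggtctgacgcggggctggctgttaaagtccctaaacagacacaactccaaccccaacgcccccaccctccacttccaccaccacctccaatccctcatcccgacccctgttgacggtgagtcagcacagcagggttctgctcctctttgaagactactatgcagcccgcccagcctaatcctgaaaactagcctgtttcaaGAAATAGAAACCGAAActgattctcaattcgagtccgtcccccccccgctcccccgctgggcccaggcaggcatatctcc

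In H2-Aa the match runs from 74 to 67 bases before the start, and in Gbp2 from 59 to 50 before it on the opposite strand. The GAAA pair was found in 10 of 17 windows of the GBP and IRG list (58.8%), that of Cxcl10 included, in 3 of 16 class I windows (18.8%) and in 1131 of all 32851 windows (3.44%). TTCNNNGAA was found in 8 of the 17 (47.1%), those of Irf1 and Irf8 included, and in 8.3% of all windows, and TGACGTCA in 1 of 5 class II windows, that of H2-Aa, and in 1.79% of all. A match is a description of the letters and no sign that a factor was bound.

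Immediate early genes were lower in cKit+/DDR2+/CD45-, and made up 4 of the 5 genes called lower. Of 30 listed genes 25 were measured, 19 stood below both libraries, where 29.9% of all genes did, and 1 stood above both. The medians were -0.45 and -0.69, and -0.42 against the unshared cells of replicate 1. Fos, a subunit of the AP-1 factor, stood at 684 CPM (661 to 708) against 1394 and 1650, with log2 ratios of -1.03 (-1.10 to -0.95) and -1.27 (-1.32 to -1.22). Ier3, an early response gene tied to cell survival, stood at 236 CPM against 524 and 731, with ratios of -1.15 and -1.63. Nfkbiz, a nuclear modulator of NF-kB, stood at 76.7 CPM against 166 and 176, with the cKit+/DDR2- libraries close together. Against the unshared cells of replicate 1 the ratios were -0.76 for Fos and -0.94 for Ier3, short of 2-fold, and -1.14 for Nfkbiz.

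Socs3, an inhibitor of cytokine receptor signalling, stood at 193 CPM (181 to 206) against 407 and 639. Its ratios were -1.07 and -1.72, and -1.06 with the unshared cells. Its promoter window is shown for its STAT palindrome, in capitals, from 154 to 146 bases before the start; such a match is in 4 of 32 windows of the immediate early list (12.5%) and 8.3% of all.

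Socs3, chr11:117969317-117969616, minus strand: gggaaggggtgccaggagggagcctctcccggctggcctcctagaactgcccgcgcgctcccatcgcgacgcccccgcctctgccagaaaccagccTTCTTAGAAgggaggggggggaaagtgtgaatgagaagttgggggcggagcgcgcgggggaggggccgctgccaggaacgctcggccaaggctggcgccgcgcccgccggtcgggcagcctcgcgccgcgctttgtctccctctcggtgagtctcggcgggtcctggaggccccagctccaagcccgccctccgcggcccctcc

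Among the other members, Jun stood at 1770 CPM against 2705 and 2857, and Atf3, a stress-induced factor, at 126 against 231 and 568. The member above both was Nr4a1, an orphan nuclear receptor, with 218 CPM against 167 and 133. Egr1 lay between, with 1365 CPM against 1192 and 2079. The share of cells with a UMI at 2000 per cell differed in the same direction for the called genes. Fos was seen in 46.6% (41.8 to 51.6), 55.9% (47.4 to 64.1) and 66.1% (63.3 to 68.8) of cells, and Ier3 in 24.5%, 33.1% and 54.7%. For Fos, Ier3 and Nfkbiz the intervals of cKit+/DDR2+/CD45- and replicate 1 overlap, and for Socs3 they do not. The list summed to a mean of 23.3, 33.3 and 38.4 UMIs per cell. The macrophage marker sums of 1.68, 31.9 and 91 CPM stood in the same order, and macrophages of cKit+/DDR2+/CD45+ held a mean of 51.1 UMIs of the list. Without endocardial cells holding a UMI of Lyz2, C1qa, Col1a1 or Rgs5, the medians were -0.52 and -0.70, and the ratios of Fos were -1.12 and -1.25. The part of macrophage RNA in the immediate early values was not tested.

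**Figure D5:**
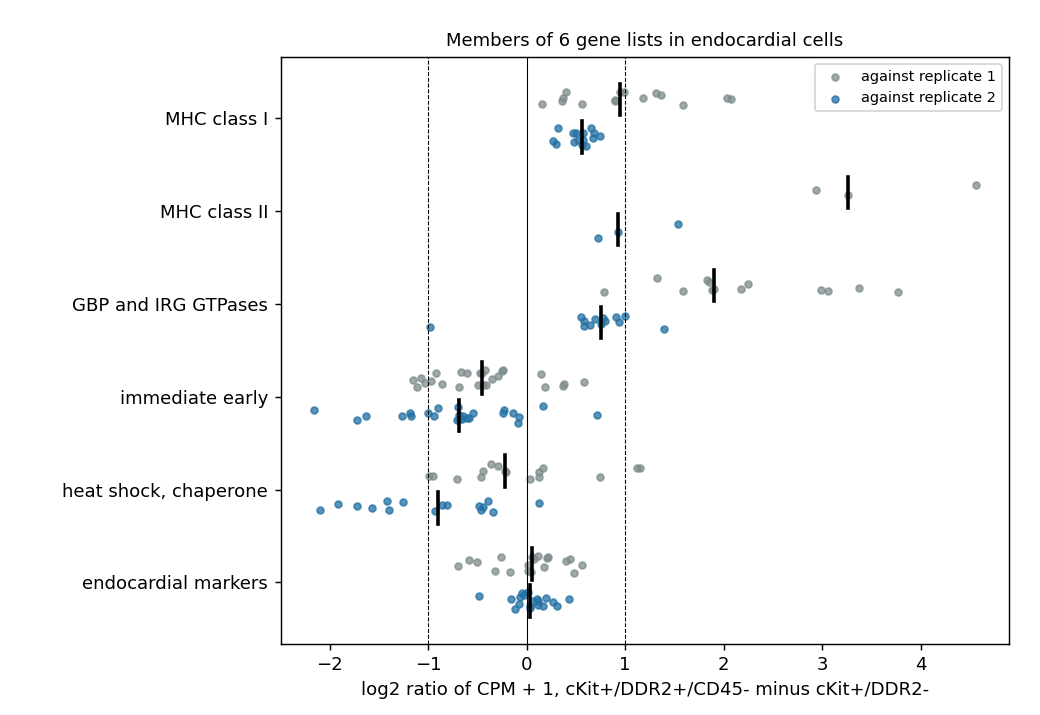
Each point is a measured member of 1 of 6 gene lists (rows); the horizontal axis is its log2 ratio of CPM + 1 in cKit+/DDR2+/CD45- against cKit+/DDR2- replicate 1 (grey) or replicate 2 (blue), with medians as black bars, 0 as the solid line and 2-fold as the dashed lines. MHC and GTPase medians lie to the right (0.56 to 3.26), immediate early medians to the left (-0.45 and -0.69), and endocardial marker medians at 0.05 and 0.03.

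Heat shock genes set the cKit+/DDR2- libraries apart from each other more than they set cKit+/DDR2+/CD45- apart from both. Hspa1a, an inducible chaperone, stood at 385 CPM against 177 in replicate 1 and 1461 in replicate 2, and its near-identical copy Hspa1b at 215 against 96.3 and 923. Of 16 measured members 9 stood below both libraries (all genes, 29.9%) and 1 above, with medians of -0.22 and -0.90 and none called. The median against the unshared cells of replicate 1 was -0.03. The co-chaperone Dnaja1 stood below both, at 279 CPM against 553 and 671. In the list of stress genes 7 of 10 measured members stood below both (all genes, 29.9%), among them Cebpd, a stress-responsive transcription factor, at 339 CPM against 603 and 761.

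Further signalling genes stood apart from both libraries by less than 2-fold on at least 1 side. Ccnd1 (cyclin D1), which drives entry into the cell cycle, stood at 136 CPM against 58.3 and 75.2, with log2 ratios of 1.21 and 0.85. Klf4, a transcription factor that responds to blood flow, stood at 332 CPM against 569 and 620, and Hes1, a target of Notch, at 138 against 217 and 225. The adhesion molecule Icam1 stood at 213 CPM against 306 and 312. For these 3 lower genes the cKit+/DDR2- libraries lay close together, within 0.12 on the log2 scale for Klf4 and 0.05 for Hes1. Igfbp5, an insulin-like growth factor binding protein, stood at 1533 CPM against 484 and 1110, so that replicate 1 was the library apart. Gadd45g, a stress-induced growth arrest gene, stood at 137 CPM against 122 and 433, so that replicate 2 was.

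A 1.5-fold threshold was added after the data were seen, and the lists were chosen with earlier results known. At it 0.874% of all measured genes were higher than both libraries and 0.813% lower. The GBP and IRG list held 9 of the 29 higher (of 13 measured members), class I held 5 (of 15) and class II 3 (of 3). The immediate early list held 8 of the 27 lower (of 25 measured members), the stress list 3 (of 10) and the heat shock list 2 (of 16). Outside the lists, higher genes included Cdh13 (T-cadherin), at log2 ratios of 0.94 and 0.82, Ackr3, a scavenging chemokine receptor, at 0.64 and 0.71, and Wars, a tRNA synthetase that interferon gamma induces, at 1.45 and 0.79. These 3 genes were chosen after their values were seen.

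Matrix, mesenchymal, fibroblast, glycolysis and proliferation lists held no gene called against both libraries, where 0.331% of all measured genes were called. Over all genes 21.2% stood above both and 29.9% below. Of the collagen receptors, Itgb1 was measured, at log2 ratios of 0.48 and 0.20. Of 24 fibrillar matrix genes 10 were measured, 5 above both libraries and 2 below, with medians of 0.01 and 0.18 (0.36 against the unshared cells of replicate 1). Of 29 genes of mesenchymal transition 16 were measured, 6 above both and 5 below, with medians of 0.14 and -0.01, and its share below both lies near that of all genes. Of 21 fibroblast genes 7 were measured, 4 above both and none below, with medians of 0.31 and 0.11 (0.48 against the unshared cells). Of 17 glycolysis genes 11 were measured and 9 stood below both, with Gapdh at 304 CPM against 447 and 370.2. The proliferation genes Mki67 and Top2a were seen in 0 of 416 cKit+/DDR2+/CD45- cells at 2000 UMIs, which allows a share of up to 0.721%, and in none of the 145 and 1167 cells of the other libraries. That limit is 3 counts of the total, and it bounds cells with a UMI at this depth, not cells that express the gene. At full depth Mki67 was in no cell of the 3 libraries, and Top2a in 1 of 420, 0 of 146 and 5 of 1178 cells.

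The same ratios were taken in blood endothelial cells (Npr3, Ptprc, Pdgfra and Prox1 at 0, with Cdh5, Pecam1 and Cd36 or Car4) of the 3 libraries, 495, 116 and 261 cells. There 14 of 3597 genes (0.389%) were 2-fold apart from both cKit+/DDR2- libraries, with 5 higher (0.139%) and 9 lower (0.250%). The pairs differed in 112 of 3413 genes against replicate 1 (3.28%) and 98 of 3283 against replicate 2 (2.99%), with a yardstick of 294 of 3520 (8.35%). Class I genes stood above both in 14 of 15 cases (all genes, 22.0%), with medians of 0.51 and 0.48, and GBP and IRG genes in 11 of 12, with 1.47 and 0.66. Immediate early genes stood below both in 18 of 24 cases (all genes, 26.7%), with medians of -0.30 and -0.63. These 3 lists thus had medians of the same sign in both cell classes. Class II genes did not: in blood endothelial cells their medians were 2.43 against replicate 1 and -0.54 against replicate 2, and H2-Aa stood at 70.5, 10.3 and 90.4 CPM. The difference between the cell classes was not tested. Nuak1 and Serpina1b stood below replicate 2 there, at 37.0 against 81.9 CPM and 35.9 against 102 CPM. At 2000 UMIs, Ier3 and Socs3 were seen in more of these cells than in replicate 1, 18.6% against 12.5% and 8.77% against 4.46%. Fos and Nfkbiz were seen in fewer, 25.3% against 30.4% and 6.68% against 9.82%. The intervals of each gene overlap at this depth.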

How the data were processed

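The authors deposited, per cell and gene, natural log values of 1 plus UMIs scaled to 10000 per cell; per the submitters' processing notes, Cell Ranger (version not given in the sources used here), the genome build mm10 and Seurat 4.0.4 were used. Whole UMIs were recovered for 100% of values (tolerance 0.01); genes absent from a table counted as 0. UMIs were summed over the endocardial cells of each library and scaled to CPM. Ratios on the log2 scale had 1 CPM added to each value. A gene counted as measured where 1 library or more reached 50 CPM, which is 238, 81.5 and 563 UMIs in cKit+/DDR2+/CD45-, replicate 1 and replicate 2. A gene was called at 2-fold the same way against both cKit+/DDR2- libraries. No test was run.

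Named genes were Kit, Ddr2, the endocardial markers, up to 12 called genes each way, and up to 4 members of each of 40 lists; other members described, the predicted transcripts among the called genes and the flagged gene were named after their values were seen. Members and lists were chosen with earlier results of these data known. Intervals are exact at 95% (Poisson for CPM, Clopper-Pearson for shares, ratios without the added CPM) and cover counting error only. No clustering or doublet caller was used; the rule drops cells with Ptprc, Pdgfra or Prox1, and a range of UMIs per cell was an alternative. The scripts were tested on simulated data. Fibroblasts (Pdgfra and Dcn, no Cdh5 or Ptprc) and macrophages (Ptprc and C1qa, no Cdh5) served as background cells. Alternatives changed the cell choice, scaling, CPM minimum, added CPM and depth. Computation used Python 3.11.15, numpy 2.4.6, scipy 1.17.1, pandas 2.3.3 and matplotlib 3.10.9.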

Additional observations from a re-analysis of the deposited data

Results flagged for a closer look

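The tables of cKit+/DDR2- replicate 1 and cKit+/DDR2+/CD45+ share 190 cell barcodes, where the other pairs of libraries share 1 to 3. Replicate 1 belongs to the comparison, and cKit+/DDR2+/CD45+ lies outside it. The UMIs of a shared barcode were 19.2 times as many in replicate 1 at the median (13.4 to 24.1). For 190 of the 190 barcodes, the cell of replicate 1 whose expression was most like the cKit+/DDR2+/CD45+ cell was the one with the same barcode. Of the 71 endocardial cells in cKit+/DDR2+/CD45+, 27 carried a shared barcode.

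Ctsh, a lysosomal cathepsin, differed in direction between cell classes. In endocardial cells its log2 ratios were 0.23 against replicate 1 and 0.15 against replicate 2. In blood endothelial cells they were -1.34 and -2.22, at 11.5 CPM against 30.8 and 57.2. The mean ratios lie 1.97 apart on the log2 scale, and the difference was not tested.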

How the results depend on the processing

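The order of counts here is higher than both, lower than both, apart from replicate 1, apart from replicate 2, and between the cKit+/DDR2- libraries; as reported they are 6, 5, 81, 30 and 86. A minimum of 20 CPM gave 10, 9, 155, 56 and 182, a minimum of 200 CPM 1, 3, 27, 16 and 30, and a 1.5-fold threshold, added after seeing the data, 29, 27, 372, 122 and 420. Cells thinned to 2000 UMIs gave 10 higher, 9 lower, 248 apart from replicate 1 and 224 between the cKit+/DDR2- libraries. An Npr3 minimum of 1.0 gave 11 higher. CPM without abundant transcripts gave 12 higher and 5 lower, with 47 apart from replicate 2, and median-ratio scaling 7 higher and 3 lower. Without cells with a UMI of Lyz2, C1qa, Col1a1 or Rgs5, an alternative added after seeing the data that left 380, 109 and 665 cells, 11 were lower. The same with Dcn also left out, as planned, kept 9, 6 and 35 cells and was not run. Leaving out the shared barcodes, also added later, gave 208 apart from replicate 1 and 256 between the cKit+/DDR2- libraries. Leaving out a cKit+/DDR2- library gave 7 to 48 higher and 23 to 33 lower. The cause of these shifts was not tested.

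Over 15 alternatives H2-Aa was called in 15, Gbp8, Ier3, Nfkbiz and 9930111J21Rik2 in 14, Ly6a in 13, Nuak1, Serpina1b and Gm26802 in 12, Socs3 in 11 and Fos in 10. Class I medians ranged from 0.89 to 1.03 against replicate 1 and 0.51 to 0.58 against replicate 2, class II from 2.78 to 4.56 and 0.71 to 1.54, GTPases from 1.72 to 2.59 and 0.69 to 0.78, and immediate early genes from -0.52 to -0.37 and -0.71 to -0.65. No paired analysis was possible because the groups share fewer than 2 replicate numbers.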
